A study of Mus musculus with 31 samples.

Results

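The nuclear genes for mitochondrial ribosomal proteins were described in mouse brain tissue across 4 sex-chromosome and gonadal-sex groups. Members were the genes whose annotated symbol starts with Mrpl or Mrps followed by a digit, each read from its probe of highest mean signal. The rule used names only and no comparison between samples. It gave 70 genes of 8974 named genes that were tested, and all 70 passed the filter on low signals, which required 7 or more arrays to have a detection p-value below 0.05. On all 31 arrays 69 of them were detected. The exception, Mrpl39, a large-subunit protein without a bacterial counterpart, was detected on 27 arrays.

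The tissue was the bed nucleus of the stria terminalis (BNST) taken with the preoptic area (POA), forebrain regions that differ between the sexes in rodents. All mice were of strain MF1 and 152 days old. XX females (8 arrays) were compared with XX males (7 arrays), XXY males (8 arrays) and XY males (8 arrays). Sry, the testis-determining gene, is named in the array names of all 3 male groups and not in those of the females. Sry is named apart from the sex chromosomes there, also for the XY males. Surgery, hormone treatment and the origin of the Sry gene are not given in the labels. The XXY males serve as a model of Klinefelter syndrome, the condition of men with an added X chromosome. Arrays are labelled as biological replicates, and whether each stands for a separate animal is not stated, so the p-values reflect only how far these samples spread. In bulk tissue, fewer cells of a type and less RNA per cell cannot be told apart.

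Mitochondria keep their own ribosome, which translates the few proteins encoded by mitochondrial DNA, all of them core parts of the respiratory chain and the ATP synthase. Every protein of that ribosome is encoded in the nucleus, made in the cytosol and imported, while its RNAs come from mitochondrial DNA. Many of its proteins descend from those of bacterial ribosomes, and others were added in the mitochondrial lineage. The genes are active in nearly all tissues, and neurons, which rely on oxidative phosphorylation, are among the cells that need the ribosome most.

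By role, 45 members encode large-subunit proteins and 25 encode small-subunit proteins. Mrps30 and Mrps18a are counted with the large subunit, where their proteins sit in the mammalian ribosome in spite of their names. By the classes used here, 39 members were counted with a homologue in the bacterial ribosome. Among them are Mrps12 of the decoding centre, Mrpl2 next to the peptidyl transferase centre and Mrpl12 of the stalk that recruits translation factors. The other 31 were counted without one, among them Mrpl57 and Mrpl51 of the large subunit and Mrps34 of the small one. These classes were not checked by sequence, and the placing of single members may differ in other lists. Mrpl58, also known as ICT1, is a peptidyl-tRNA hydrolase built into the large subunit that frees stalled mitochondrial ribosomes. The members lay on 17 chromosomes and 0 of them on the X chromosome, so none was itself carried on the chromosome added in XXY males.

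Promoter sequence is shown for the 4 members that varied most closely together over arrays and for the 2 with the smallest p-values when XXY males or XX females were compared with XY males. RefSeq promoter windows on build GRCm38.p6 were found for 63 of the 70 members. Each sequence below is the 90 bases just before the annotated transcription start, read 5′ to 3′ on the strand of the gene, and capitals mark the core letters CCGGAAG of the GABPA (NRF2) motif and GGGCGG of the SP1 motif on either strand. Mrpl20 was read from chr4:155802788-155802877 (+), Mrps18c from chr5:100798669-100798758 (+) and Mrpl52 from chr14:54426819-54426908 (+). Mrps15 was read from chr4:126046838-126046927 (+), Mrpl58 from chr11:115403662-115403751 (+) and Mrpl51 from chr6:125192110-125192199 (+).
Mrpl20: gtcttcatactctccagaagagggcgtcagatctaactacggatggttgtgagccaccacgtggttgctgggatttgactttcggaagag
Mrps18c: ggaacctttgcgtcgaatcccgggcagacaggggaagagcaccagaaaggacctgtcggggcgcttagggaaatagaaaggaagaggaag
Mrpl52: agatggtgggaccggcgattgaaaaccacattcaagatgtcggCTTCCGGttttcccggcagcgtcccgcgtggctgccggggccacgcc
Mrps15: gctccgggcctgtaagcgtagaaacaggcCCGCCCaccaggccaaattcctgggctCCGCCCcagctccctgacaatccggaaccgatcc
Mrpl58: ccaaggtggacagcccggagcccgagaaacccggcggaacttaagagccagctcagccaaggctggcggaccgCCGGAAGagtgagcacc
Mrpl51: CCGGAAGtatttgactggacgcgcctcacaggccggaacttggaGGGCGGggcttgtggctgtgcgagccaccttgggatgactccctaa

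GABPA, NRF1, YY1 and SP1 are transcription factors known to act on nuclear genes for mitochondrial proteins. Over windows from 250 bases before to 50 bases after the start, the GABPA core stood in 25 of 63 members (39.7%), against 9.93% of all genes with a window and 19.4% of the tested genes with one. The YY1 core AAGATGG stood in 12 of 63 members (19.0%), against 8.75% of tested genes, and the NRF1 core GCATGCGC in 7 of 63 (11.1%), against 6.02%. The SP1 core was the other way round, with 31 of 63 members (49.2%) against 69.6% of tested genes. Both strands were searched, and 3 members held 3 of the 4 kinds. In the 90 bases shown, Mrpl20 and Mrps18c held none of them, Mrpl52 and Mrpl58 held the GABPA core, Mrps15 held the SP1 core at 2 places and Mrpl51 held both kinds. The 4 members that varied together therefore had no searched core in common in these 90 bases. In the wider windows Mrps18c held the GABPA core, as Mrpl52 did, and the SP1 core, as Mrps15 did. Mrpl52 also held the YY1 core there, and Mrpl20 held none of the searched cores. A match of letters is a description and not a bound site.

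Levels are log2 normalized bead intensities, and a level of one probe cannot be set against that of another. Across arrays 12939 to 14397 of 25697 probes were detected, and raw median intensity ran from 141.29 to 258.64. The labels name 2 batches without saying what they are. Each group had 5 arrays in batch 1 and 3 in batch 2, except for 2 in the XX males. All fits carried a term for batch. One array stood apart before any result: XX male 6 is labelled batch 1 but lay with batch 2 on the first principal component (27.7, where the batch 2 arrays started at 20.5 and the other batch 1 arrays ended at -10.9). In the other 3 groups the array numbered 6 belongs to batch 2. The array was kept as labelled, and a named difference that its absence moved by over 1.5 times is given without it too. Among genes listed as BNST and preoptic markers, Esr1, Gal, Moxd1 and Trh were tested and detected on all 31 arrays, while Calb1, Lhx6, Hmx2 and Hmx3 had no named probe that passed the filter.

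**Figure D1:**
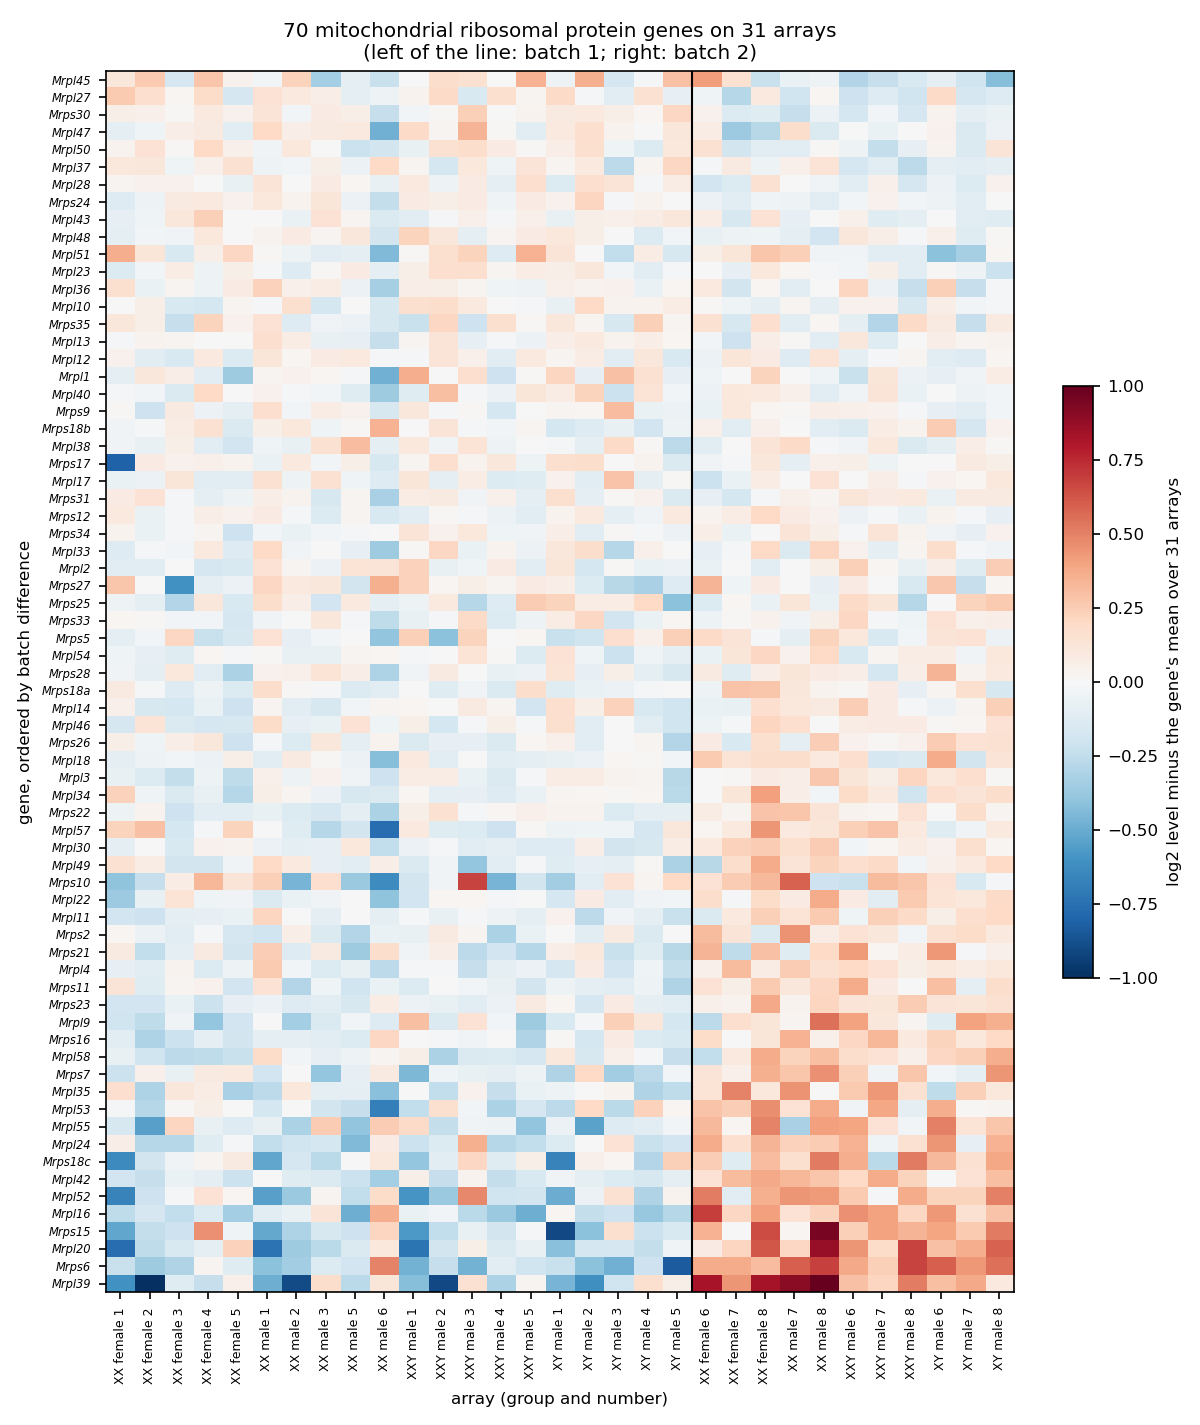
Rows are the 70 members ordered by their batch difference, columns are the 31 arrays by batch and group, and colour is the log2 level minus that gene's mean over all arrays (the scale ends at 1 either way). No block of colour follows a group, while the lower rows are red to the right of the line that parts batch 1 from batch 2.

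The first question was whether XXY males differ from XY males, that is, whether an added X chromosome goes with another level of these genes. It did not for any member at the threshold. With limma and Benjamini-Hochberg adjustment over 11713 tests, 0 of 70 members passed an adjusted p of 0.05, where 0.0512% of all tests did. An unadjusted p under 0.05 was found for 0 members, against 2.75% of all tests. The median member difference was 0.0028 on the log2 scale, the same as the median of all tests (0.0029), and 36 of 70 members lay above 0. The 95% intervals bounded what could have been missed: all 70 lay within 1.5-fold in either direction and 64 within 1.25-fold, compared with 93% and 55% of all tests, which were not matched for signal.

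Mrpl51 had the smallest p in that comparison. In XXY males its level ran from 8.09 to 8.57 with a median of 8.21, and in XY males from 7.81 to 8.35 with a median of 8.14. The groups overlapped over most of their range, though the lowest arrays were XY males. The difference of 0.16 (SE 0.093) had an unadjusted p of 0.098 and an adjusted p of 1.0. Mrpl58 came next at -0.11 (SE 0.069, unadjusted p 0.123), followed by Mrpl23, which lines the exit tunnel, at 0.079. Mrps34 (0.067) and Mrpl48 (0.073) completed the 5 of smallest p, and the 5 differences had the same sign in both batches.

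Compared with XY males, XX females differ in gonadal sex, in the number of X chromosomes and in the Y chromosome, which cannot be told apart here. Here too 0 of 70 members passed, against 0.0683% of all tests, and 3 members had an unadjusted p under 0.05 (4.29%, against 4.23% of all tests). The median difference was -0.0072, all 70 intervals lay within 1.5-fold and 61 within 1.25-fold, against 93% and 53.7% of all tests. Mrpl51 was again the member of smallest p. In XX females it ran from 8.07 to 8.58 with a median of 8.34, so its median was just below the highest XY male array, and the groups overlapped. The difference was 0.25 (SE 0.093, 1.19-fold, adjusted p 1.0), with 0.16 in batch 1 and 0.39 in batch 2. That value came from the brightest of 3 probes for Mrpl51. The other 2 probes gave 0.083 and 0.18 for XX females minus XY males, the same sign as the probe in use. The first of them was detected on 21 arrays. They varied with residual correlations of 0.26 and -0.03 to the probe in use, so the array-to-array pattern of Mrpl51 was not shared among its probes.

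Mrpl58, the ribosome-rescue hydrolase, pointed the other way in XX females. Its level ran from 8.38 to 9.01 with a median of 8.43 in XX females, from 8.56 to 8.94 with a median of 8.67 in XX males, from 8.32 to 8.81 with a median of 8.60 in XXY males and from 8.41 to 9.001 with a median of 8.72 in XY males. Of the 8 female arrays most lay low, but an array of batch 2 was the highest of all 31, so the groups overlapped. XX females were lower by -0.17 (SE 0.069, adjusted p 1.0) than XY males, with -0.15 in batch 1 and -0.19 in batch 2. Against XX males the difference was -0.21 (SE 0.071, unadjusted p 0.00677, adjusted p 0.666), with -0.21 and -0.19 in the batches. In the F test over the 4 groups Mrpl58 had the smallest p among the members (0.0224, adjusted 0.943). Neither adjusted value passed, though the sign was the same in both batches in each comparison.

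Mrpl9 and Mrpl3, large-subunit proteins with bacterial homologues, came next when XX females were compared with XY males. Mrpl9 ran from 9.46 to 10.02 with a median of 9.66 in XX females and from 9.67 to 10.25 with a median of 9.90 in XY males. The ranges overlapped from 9.67 to 10.02. The difference of -0.21 (SE 0.10, unadjusted p 0.0451) did not pass after adjustment. Mrpl3 differed by -0.11 (SE 0.057) and Mrpl57 by 0.17 (SE 0.093), both with an unadjusted p above 0.05.

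XX males and XY males are both male and differ in the number of X chromosomes and in the Y chromosome. Of 70 members 0 passed, against 0.0598% of all tests, and 1 had an unadjusted p under 0.05 (1.43%, against 5.63% of all tests). The median difference was -0.010, all 70 intervals lay within 1.5-fold and 64 within 1.25-fold, against 90.3% and 48.2% of all tests. The member below 0.05 was Mrps6, a small-subunit protein with a bacterial homologue. Its level ran from 10.17 to 11.26 with a median of 10.45 in XX males and from 9.75 to 11.18 with a median of 10.37 in XY males. Every batch 2 array of both groups lay above all but 1 of their batch 1 arrays. The difference of 0.24 (SE 0.11, unadjusted p 0.0447, adjusted p 0.874) leaned on XX male 6, which read 11.08 beside 10.17 to 10.45 in the other XX males of batch 1. Without that array the difference was 0.14, and with it counted in batch 2 it was 0.13. Mrps6 lies within the same stretch of chromosome 16 as Slc5a3, an inositol transporter gene that overlaps it on the annotation, and probe assignment between them was not tested. Mrps30 (-0.096) and Mrpl13 (-0.090) were lower in XX males in both batches, and Mrps18b (0.12) and Mrps27 (0.17) changed sign between batches. These 4 had unadjusted p-values of 0.0901 to 0.123. Without XX male 6, Mrps30 differed by -0.057, Mrpl13 by -0.057 and Mrps18b by 0.067.

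XXY and XX males both carry 2 X chromosomes and differ in the Y chromosome. Of 70 members 0 passed, against 0.0256% of all tests, and 1 had an unadjusted p under 0.05 (1.43%, against 6.55% of all tests). That member was Mrpl58, lower in XXY males by -0.15 (SE 0.071, unadjusted p 0.0447, adjusted p 0.752). The median difference was 0.00089, all 70 intervals lay within 1.5-fold and 64 within 1.25-fold, against 89.4% and 46.8% of all tests. Mrpl57 (0.18), Mrpl48 (0.097), Mrpl49 (-0.14) and Mrps6 (-0.19) followed, with unadjusted p-values of 0.0740 to 0.104. Without XX male 6, Mrpl57 differed by 0.088 and Mrps6 by -0.089.

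XX females and XX males have the same chromosomes and differ in Sry and gonadal sex. Of 70 members 0 passed, against 0.0256% of all tests, and 5 had an unadjusted p under 0.05 (7.14%, against 6.73% of all tests). The median difference was 1.5e-05, with 35 of 70 members above 0. All 70 intervals lay within 1.5-fold and 60 within 1.25-fold, against 89.4% and 46.8% of all tests. Mrpl57, a small protein of the large subunit, had the smallest p. It ran from 8.33 to 8.95 with a median of 8.67 in XX females and from 7.75 to 8.63 with a median of 8.39 in XX males. The groups overlapped, and the lowest value of the 31 was XX male 6. The difference was 0.28 (SE 0.096, 1.22-fold, unadjusted p 0.00607, adjusted p 0.666), and it was 0.38 in batch 1 and 0.080 in batch 2. Without XX male 6 it was 0.19, and with that array counted in batch 2 it was 0.30.

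Mrpl2, next to the peptidyl transferase centre, also had a narrow range. It ran from 10.48 to 10.66 with a median of 10.54 in XX females and from 10.59 to 10.80 with a median of 10.71 in XX males. The female arrays filled the lower part of the range and the 2 groups met between 10.59 and 10.66. The difference was -0.15 (SE 0.063, unadjusted p 0.0220, adjusted p 0.719), with -0.18 and -0.086 in the batches. Mrpl11, of the stalk base, differed by -0.14 (SE 0.062) and Mrpl51 by 0.21 (SE 0.097), neither past the adjusted threshold. Of the 5 members 3 were higher in males and 2 in females.

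Finally, XX females were set against XXY males, which share their 2 X chromosomes but not gonadal sex or the Y chromosome. Of 70 members 0 passed, against 0.0512% of all tests, and 2 had an unadjusted p under 0.05 (2.86%, against 5.35% of all tests). The median difference was -0.0093, all 70 intervals lay within 1.5-fold and 64 within 1.25-fold, against 91.7% and 52.1% of all tests. Mrps12, which forms part of the decoding centre, ran from 12.56 to 12.83 with a median of 12.68 in XX females and from 12.53 to 12.65 with a median of 12.57 in XXY males. The XXY arrays kept to a narrow range at the lower end of the pooled values. The difference was 0.10 (SE 0.047, 1.08-fold, unadjusted p 0.0347, adjusted p 0.887), with 0.078 and 0.15 in the batches. Mrpl3 (-0.12, unadjusted p 0.0402), Mrpl2 (-0.12), Mrpl9 (-0.19) and Mrpl37 (0.11) were the other members of smallest p.

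**Figure D2:**
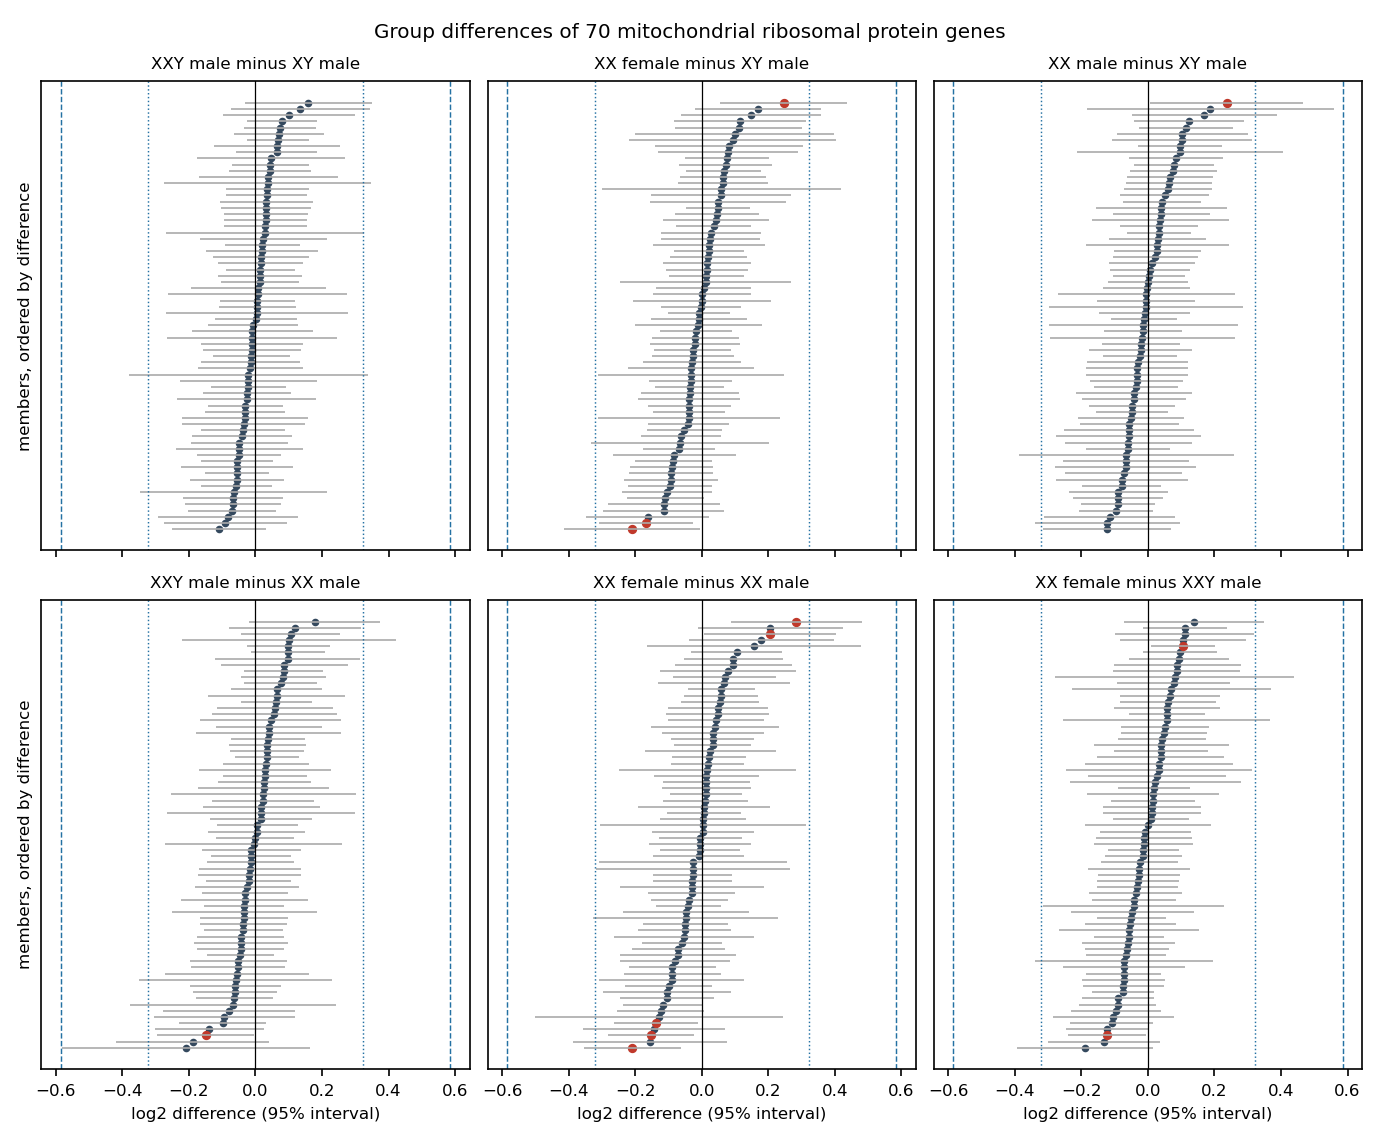
Each panel gives the 70 members' log2 differences for one comparison with their 95% intervals, ordered by size, and red marks an unadjusted p under 0.05. Dotted and dashed lines stand at 1.25-fold and 1.5-fold, and no interval crosses the dashed lines.

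**Figure D3:**
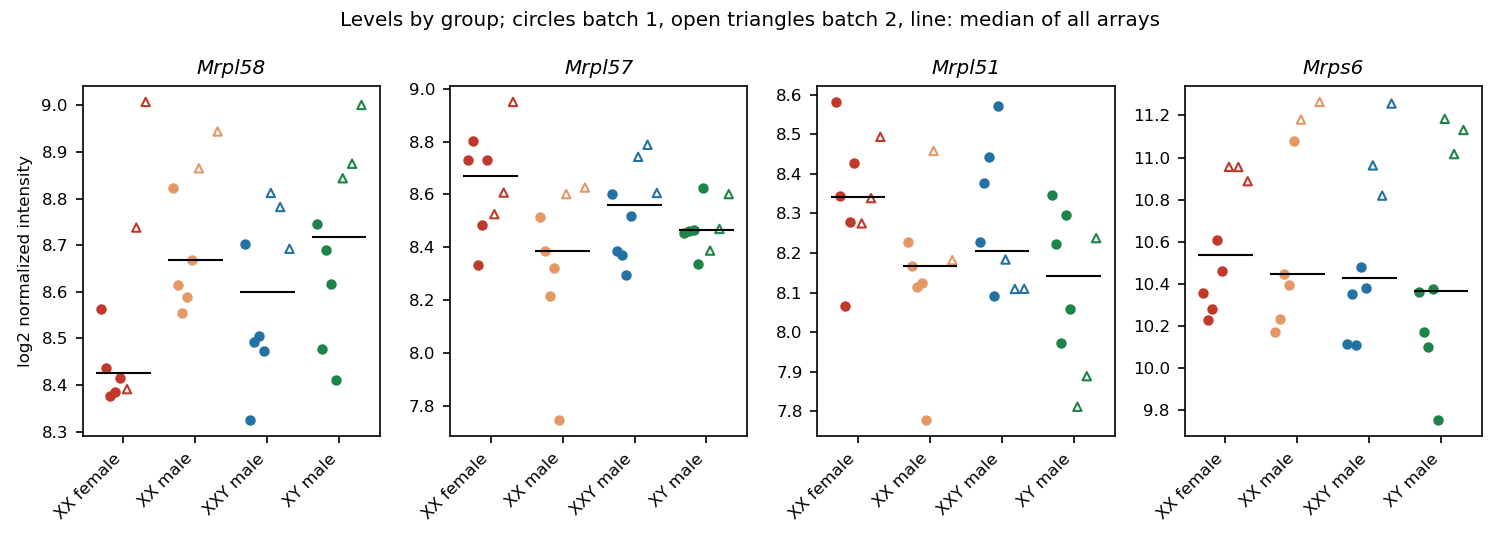
Log2 normalized intensity of Mrpl58, Mrpl57, Mrpl51 and Mrps6 on every array by group, with filled circles for batch 1, open triangles for batch 2 and a line at the group median. The groups overlap for all 4 genes, and the batches part for Mrps6.

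Over all 4 groups at once, the F test of limma called 0 members, against 0.0854% of all tests. Unadjusted, 2 members had an F-test p under 0.05, Mrpl58 and Mrpl57 (2.86%, against 4.95% of all tests). The group by batch interaction called 0 members and 0% of all tests, with 1 member (Mrps22, a small-subunit protein, unadjusted p 0.0446) and 326 of all tests under an unadjusted 0.05. In 0 of the 70 members did 2 groups fail to overlap, in any of the 6 comparisons. How many of all tests overlapped likewise was not counted, so this does not set the members apart. The mean over members showed no group difference either. After removal of batch, the mean log2 deviation over the 70 members was -0.0034 ± 0.046 (SD, n = 8) in XX females, 0.0017 ± 0.043 (SD, n = 7) in XX males, 0.0014 ± 0.037 (SD, n = 8) in XXY males and 0.00056 ± 0.030 (SD, n = 8) in XY males. The group means differed by far less than the spread between arrays.

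Other genes of mitochondrial translation were taken from lists of known function. They comprised 12 tested translation factors of 14 listed, 11 aminoacyl-tRNA synthetases of 17, 16 assembly and rRNA modification factors of 23, 3 mitoribosomal proteins with other names of 5 and all 12 genes of mitochondrial DNA transcription and maintenance. Of these lists 0 genes passed in any of the 6 group comparisons or the F test. The smallest F-test p belonged to Mtg1, a GTPase of large-subunit assembly (0.00179, adjusted 0.821), and Mettl17, a factor of small-subunit assembly, followed in its list (0.0713). Mrrf (0.165) and Mtrf1 (0.204), a recycling and a release factor, led the translation factors. Mars2 (0.181) and Vars2 (0.184) led the synthetases. Twnk (0.0760), the mitochondrial DNA helicase, which overlaps Mrpl43 on the annotation, and the polymerase gene Polrmt (0.262) led the DNA list. Dap3 (0.386) and Ptcd3 (0.538) led the mitoribosomal proteins of other names.

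Batch was the contrast in which the members moved. Between batch 2 and batch 1, 33 of 70 members (47.1%) passed an adjusted p of 0.05, close to the 44.7% of all tests. Direction was uneven: 31 members were higher in batch 2 (44.3%, against 23.2% of all tests) and 2 were lower (2.86%, against 21.5%). The median member difference was 0.099 on the log2 scale, where the median of all tests was 0.014. Small-subunit members were above 0 in 23 of 25 cases and large-subunit members in 29 of 45. Other gene lists differed in their lean. Of 52 cytosolic ribosomal protein genes 25 were higher and 3 lower, and of 70 nuclear respiratory chain genes 39 were higher and 3 lower. Of 11 mitochondrial aminoacyl-tRNA synthetases, by contrast, 1 was higher and 4 were lower, with a median of -0.13. Translation factors split into 2 higher and 3 lower of 12, assembly factors into 5 higher and 0 lower of 16, and the DNA list into 4 higher and 2 lower of 12. Of the 3 mitoribosomal proteins with other names 0 passed, and all 3 lay below 0.

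Mrpl39 had the largest rise. It ran from 5.33 to 6.50 with a median of 6.08 in batch 1 and from 6.43 to 7.34 with a median of 6.77 in batch 2. The batches barely met, and this member was also the one not detected on every array. Its difference was 0.83 (SE 0.13, adjusted p 9.1e-06). Mrps6 ran from 9.75 to 11.08 with a median of 10.35 in batch 1 and from 10.82 to 11.26 with a median of 11.02 in batch 2. The only batch 1 array in the batch 2 range was XX male 6. Its difference was 0.75 (SE 0.082, adjusted p 2.21e-08).

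Mrpl20, Mrps15 and Mrpl16, all with bacterial homologues, completed the 5 largest rises. Mrpl20 rose by 0.64 (SE 0.10, adjusted p 7.81e-06), Mrps15 by 0.58 (SE 0.11, adjusted p 8.21e-05) and Mrpl16 by 0.52 (SE 0.075, adjusted p 2.24e-06). The 2 members lower in batch 2 were Mrpl27, with a bacterial homologue, and Mrps30. Mrpl27 differed by -0.15 (SE 0.055, adjusted p 0.0289), and that call was lost when any of XX female 7, XX male 7, XXY male 6, XXY male 8 or XY male 7 was left out, with adjusted p-values of 0.0502 to 0.068. Mrps30 differed by -0.15 (SE 0.040, adjusted p 0.00356). In the submitters' processed values, 0 members passed for batch, and the median member difference there was 0.048. Over all tests in those values 0 were called higher and 3 lower in batch 2, with a median difference of 0.00073. The lack of calls there was thus not particular to the members.

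XX male 6, the array labelled batch 1, was read for the 33 members called by batch. For 14 of the 33 it lay nearer to the mean of the batch 2 XX males than to that of the other batch 1 XX males. For the rest it lay nearer to batch 1, but that does not always place it with batch 1. Some of these, such as Mrpl42, Mrpl53 and Mrpl57, read below both means, and others, such as Mrps2, lay between them. For Mrpl42 it read 11.27, where the means were 11.48 in batch 1 and 11.91 in batch 2. The share over all tests called by batch was not counted. XX male 6 also had the lowest mean over the 70 members of all arrays (-0.12, where the next lowest was -0.084 and the highest 0.17). Those means still held the batch difference. With it removed by the labelled batch, XX male 6 was at -0.068 and XY male 7 at -0.062. The large-subunit mean of XX male 6 was then -0.11 and its small-subunit mean 0.0077. So the array lay with batch 2 on the first component and was low for the large-subunit members. Counted in batch 2, it left 29 members higher and 5 lower, and left out, 31 higher and 4 lower. With either change 0 members passed in a group comparison.

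**Figure D4:**
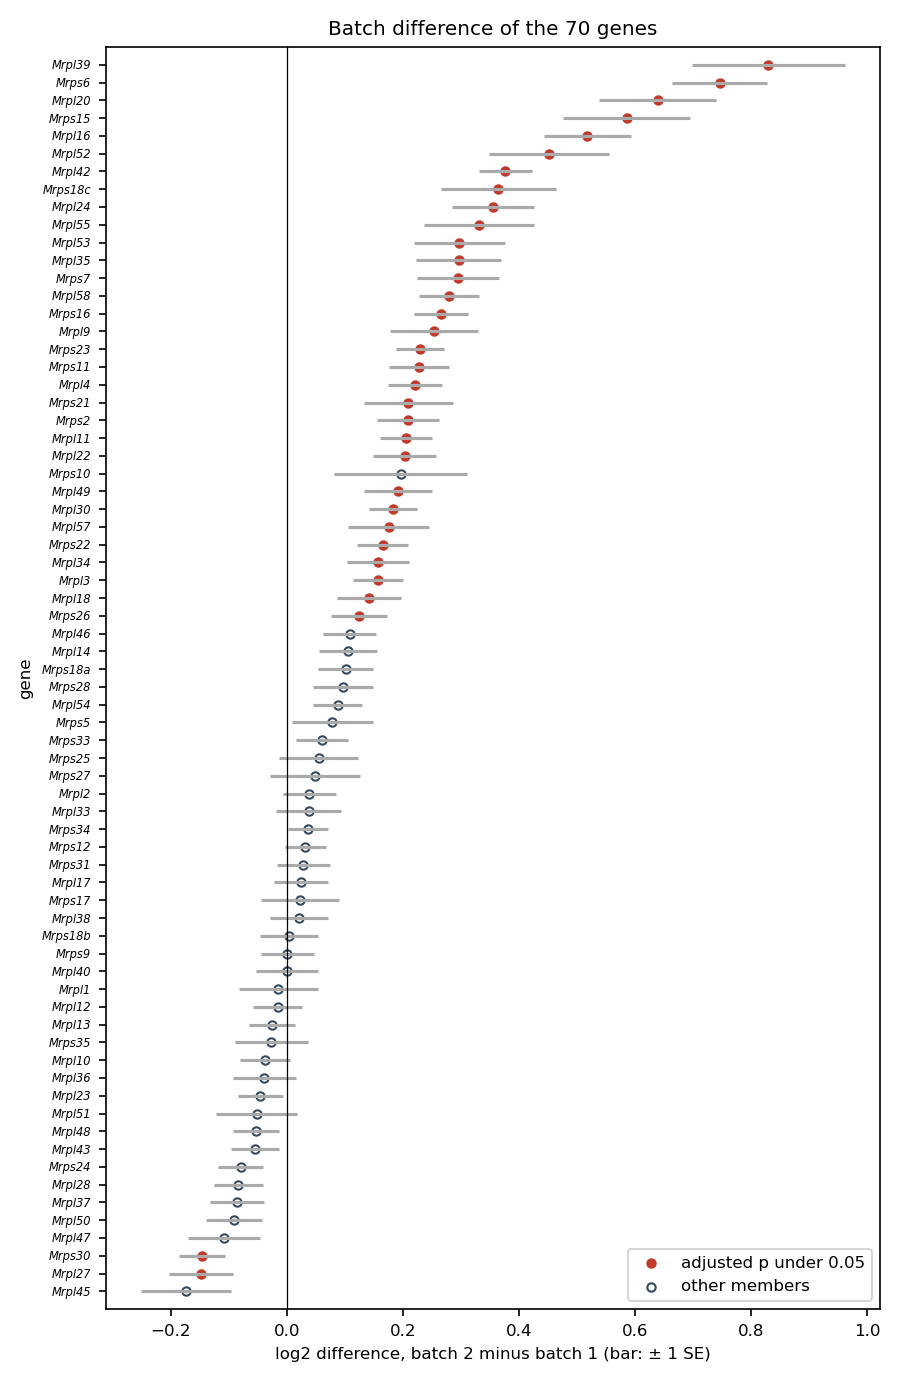
Points give each member's log2 difference, batch 2 minus batch 1, with a bar of 1 SE either side, filled where the adjusted p was under 0.05. The filled points are 31 to the right of 0 and 2 to the left, and the far right holds Mrpl39, Mrps6, Mrpl20, Mrps15 and Mrpl16.

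More than one probe was listed for 19 members, which allows a check within a gene. Of their 25 further probes, 20 had a larger batch 2 minus batch 1 difference than the brighter probe in use. The median was 0.19 over the further probes and 0.037 over the probes in use. The widest gaps were in Mrpl47 and Mrpl13. Mrpl47 differed by -0.11 in the probe in use and by 0.998 in the other, and Mrpl13 by -0.026 in the probe in use and by 0.95 in the other. Probes listed for one gene thus gave unlike batch differences.

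In group comparisons the probes of 3 members pointed apart where 1 of them had an unadjusted p under 0.05. For Mrps25, a small-subunit protein, the probe in use gave -0.10 for XX females minus XX males, while the other probes gave 0.29 (unadjusted p 0.0436) and -0.043. Against XXY males the same 3 probes gave -0.072, 0.29 and 0.015. For Mrps31 the difference between XX females and XX males was 0.011 in the probe in use and -0.36 (unadjusted p 0.0320) and 0.070 in the others. Mrpl49 gave -0.015 in the probe in use for XXY minus XY males, and 0.021, -0.15 and -0.21 (unadjusted p 0.0248) in the other 3.

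Variation left after group and batch was small for most members. The residual SD had a median of 0.13 on the log2 scale over members, against 0.23 over all tests, 0.12 over cytosolic ribosomal protein genes and 0.10 over respiratory chain genes. These sets were not matched for signal, so the lower value than over all tests does not set the members apart. The steadiest members were Mrps34 (0.070), Mrps12 (0.075) and Mrps24 (0.084), all of the small subunit. Mrps34 ran from 12.35 to 12.69 over all 31 arrays. The most variable were Mrpl39 (0.37), Mrps10 (0.31) and Mrps15 (0.30). A single array stood out for Mrps17, named after its values were seen, which read 11.66 on XX female 1 and 12.30 to 12.64 on all others.

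Mrps10, a small-subunit protein with a bacterial homologue, varied the same way in both of its probes. Their residuals correlated at 0.92 over 31 arrays, where the median over all further probes of members was 0.27. Mrps10 ran from 9.78 to 10.52 in XX females, from 9.56 to 10.78 in XX males, from 9.72 to 10.86 in XXY males and from 9.84 to 10.38 in XY males. Every group spanned over 0.5 on the log2 scale, so the spread lay within groups and not between them. Group medians were 10.32, 9.98, 10.08 and 10.19 in the same order.

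The members did not move as a unit from array to array. Over the 2415 pairs of members the median residual correlation was 0.076, against -0.0018 over all tests and 0.22 within the cytosolic ribosomal protein genes. It was 0.075 in batch 1, 0.12 in batch 2 and 0.062 without XX male 6. Of the pairs 61.8% were positive and 3.93% were above 0.5, against 49.7% and 2.02% over all tests. Correlations here are descriptions over arrays that share their normalization, with no test.

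Mrpl43 (0.57), Mrps24 (0.52) and Mrpl33 (0.52) followed the mean of the other members most closely. Mrps6 (-0.29), Mrpl35 (-0.095) and Mrps2 (-0.072) followed it least. The large-subunit and small-subunit means correlated at 0.55 (Spearman's rho 0.65, and 0.58 without the 2 arrays farthest out), with 0.45 in batch 1 and 0.64 in batch 2. The mean of all members correlated with that of the cytosolic ribosomal protein genes at 0.47 (rho 0.46), with 0.35 and 0.68 in the batches. With the respiratory chain genes it was 0.45 (rho 0.38), but 0.018 in batch 1 and 0.83 in batch 2, so that relation rested on batch 2. Among cell-type markers, the meningeal list (5 of 7 tested) correlated at -0.41 and the choroid plexus list (3 of 6 tested) at -0.33. The oligodendrocyte list gave -0.25, the astrocyte list 0.21, the endothelium and pericyte list -0.20, the microglia list -0.12 and the neuron list -0.019. Without XX male 6 the astrocyte list gave 0.072 and the microglia list 0.0037. The meningeal list then gave -0.33, the choroid plexus list -0.30 and the oligodendrocyte list -0.24. The endothelium and pericyte list gave -0.25 and the neuron list -0.095. In batches 1 and 2 the neuron list gave 0.41 and -0.46, and the astrocyte list 0.38 and -0.071. The endothelium and pericyte list gave 0.35 and -0.55, so these lists changed sign between batches. Their part in the members' variation was not tested. In the 6 group comparisons 0 genes of the cell-type marker lists passed.

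The highest pairs shared members. Mrpl20 and Mrps18c correlated at 0.82 (rho 0.88), Mrpl52 and Mrps18c at 0.81 (rho 0.76), Mrpl20 and Mrps15 at 0.72 (rho 0.75) and Mrps11 and Mrps21 at 0.71 (rho 0.71). Large-subunit and small-subunit genes were joined in all of these pairs but Mrps11 with Mrps21, and the paired genes lie on different chromosomes except Mrpl20 and Mrps15, both on chromosome 4. The lowest pair was Mrpl57 and Mrps6 at -0.63 (rho -0.48).

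Mrpl20, Mrps18c, Mrpl52 and Mrps15 were then taken as a set, chosen after their values were seen. Their mean residual correlated at -0.14 with that of the other 66 members, yet at 0.73 with the respiratory chain genes and 0.59 with the cytosolic ribosomal protein genes. In batch 1 these values were -0.42, 0.73 and 0.61, and in batch 2 they were 0.48, 0.83 and 0.53. The set thus stayed near the other 2 lists in both batches, and its relation to its own family changed sign between batches.

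The array number in the labels went with that set. In all 4 groups the array numbered 1 was the lowest of the 5 batch 1 arrays for each of the 4 genes. Mrpl20 read 9.94, 9.97, 9.98 and 10.29 on the arrays numbered 1 of the XX females and of the XX, XXY and XY males, where the median over all batch 1 arrays was 10.53. Over all tests 1.66% were lowest on number 1 in all 4 groups, and over the members 4 of 70 were (5.71%). Highest on number 1 in all 4 groups were Mrpl34, Mrpl36 and Mrpl58, named after their values were seen (4.29% of members, against 0.265% of all tests). The arrays numbered 1 had raw medians of 150.9 to 200.87 and 13904 to 14090 probes detected, inside the range of the other batch 1 arrays (141.29 to 228.83 and 12939 to 14112). The pairs were therefore read again without the arrays numbered 1, and with the number in the descriptions fitted as a block, both checks chosen after seeing the data. Mrpl20 with Mrps18c gave 0.75 and 0.66, and Mrpl52 with Mrps18c gave 0.70 and 0.64. Mrpl20 with Mrps15 gave 0.63 and 0.38, so that pair moved most with the block. Mrps11 with Mrps21 gave 0.68 and 0.69, and Mrpl57 with Mrps6 gave -0.62 and -0.69. What the number stands for is not given in the labels.

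**Figure D5:**
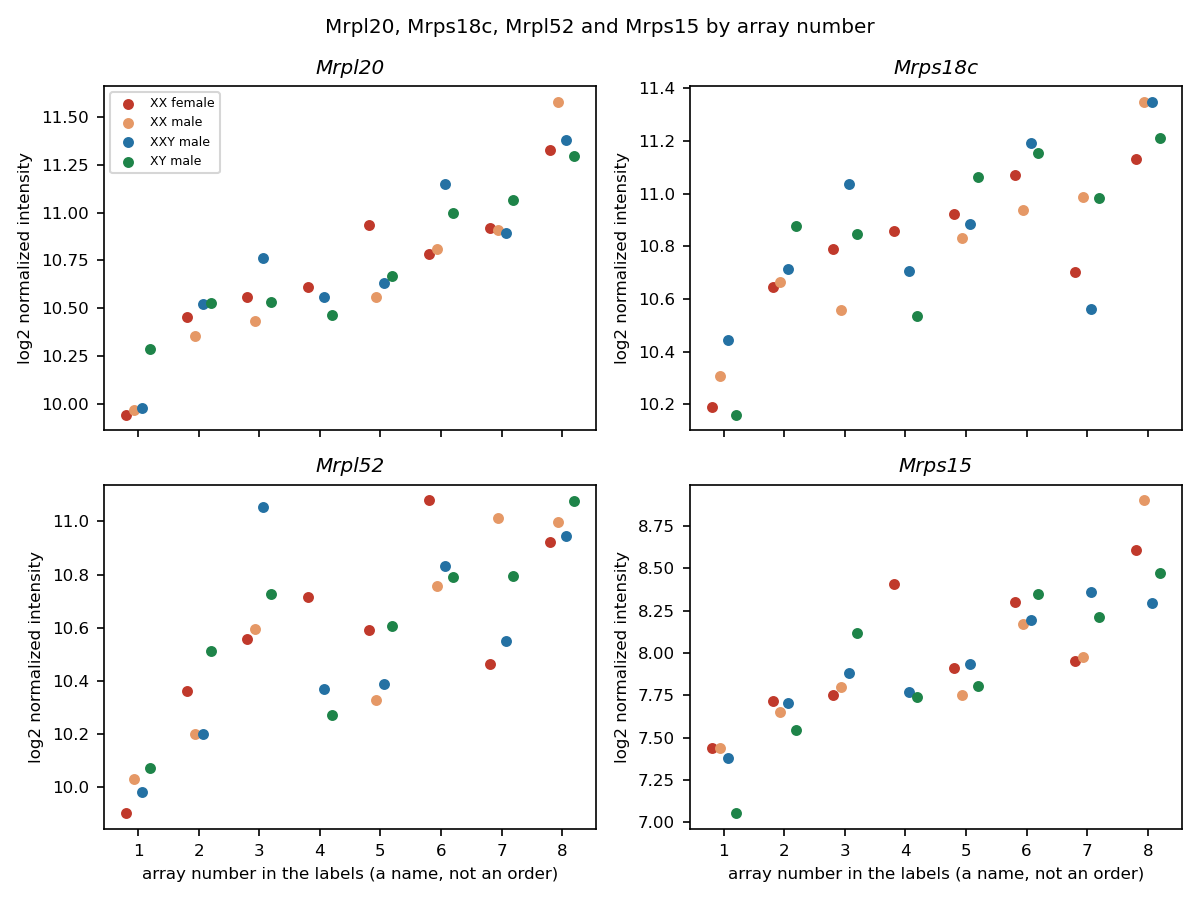
Log2 normalized intensity of Mrpl20, Mrps18c, Mrpl52 and Mrps15 on each array, placed by the number in its title and coloured by group, where numbers 1 to 5 are batch 1 and 6 to 8 batch 2 (XX male 6 is labelled batch 1). For Mrpl20 the points of one number lie close together whatever the group, and in all 4 panels number 1 is the lowest of batch 1 in each group.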

How the data were processed

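Total RNA from 31 BNST/POA samples was read on single-colour bead arrays. The deposited scanner table gives, per the file headers, an unnormalized bead intensity with its detection p-value. Bead counts deposited in the same table were not used. The deposited series table holds log2 values of the same arrays, and the submitters' processing notes name limma. Its scale was found by comparison with the scanner values.

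Intensities were background-corrected and quantile-normalized here with neqc of limma 3.58.1 (R 4.3.3, offset 16). A probe was kept if its detection p-value was below 0.05 on 7 or more arrays. Each named gene was read from its brightest probe (8974 genes), and 2739 probes without a name were tested as they are. The limma fit held group and batch, and p-values were adjusted by Benjamini-Hochberg over all 11713 tests. The number of arrays limits the precision. Residual correlations used the same fit. The fit was tested on simulated data. Names came from the platform annotation and RefSeq.

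Members and gene lists were chosen with earlier results of these data known. Named were the 5 members of smallest p in each comparison, the 5 largest batch changes each way, the 3 extremes of residual SD and of correlation with the other members, and members whose probes disagreed. In other lists the 2 genes of smallest F-test p were named. Sets described after their values were seen are called so. Alternatives changed the normalization, filter, batch term, probe choice and arrays. Levels of different probes were not compared.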

Additional observations from a re-analysis of the deposited data

Results flagged for a closer look

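A value was looked at again where the gap between an end array and its nearest neighbour, divided by the range of the group, passed Dixon's 95% critical value. Chance gives about 1 in 20 such sets. Of 140 sets of a named member in a group, 9 passed, and over all 70 members 22 of 280 sets did.

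Of the 9, 5 were low arrays. Mrpl13 read 12.27 on XX female 7, below 12.45 to 12.55 on the other females. Mrpl3 read 10.87 on XY male 5, below 11.16 to 11.31. Mrps25 read 8.64 on XY male 5, below 9.04 to 9.31, so that array was low for both genes. Mrpl33 read 11.99 on XY male 3, below 12.24 to 12.46. Mrps27 read 7.62 on XX female 3, below 8.13 to 8.57.

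The other 4 were high arrays. Mrpl33 read 12.48 on XXY male 2, above 12.18 to 12.32. Mrpl48 read 11.55 on XX female 4, above 11.35 to 11.45. Mrpl9 read 10.40 on XX male 8, above 9.51 to 9.87. Mrps24 read 13.02 on XY male 2, above 12.71 to 12.85. The mean over all members passed in none of the 4 groups, and no member's difference between batches in its group effect passed the adjusted threshold.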

How the results depend on the processing

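In each of the 6 group comparisons and the F test, 0 members passed under every setting tried, which covered the submitters' processed values, no background correction, cyclic loess, both other detection filters, no batch term, batch as a random block, XX male 6 counted in batch 2, the mean of all named probes, each batch alone and each array left out. The batch count held within 1.5 times of 33 except in the submitters' processed values. There it was 0, and of all tests 0 were called higher and 3 lower in batch 2. The median residual correlation among members was 0.1461 with no batch term. With batch 2 alone the median member difference was 0.03234 for XX minus XY males and -0.04137 for XXY minus XX males, and Mrps18b (-0.09411) and Mrps27 (-0.0574) reversed for XX minus XY males. The causes were not tested, beyond fewer arrays in batch 2. Samples were not treated as paired by array number in the main fit, though part of the genes went with it. For each of numbers 1, 2 and 3, the share of all tests lowest in batch 1 in all 4 groups was 0.76% to 1.66%. The share highest there was 0.265% to 1.53%. Same-numbered arrays correlated at -0.064 to 0.13 on average by the numbers of the descriptions, which differ from the titles in some XX males, and at -0.080 to 0.13 by those of the titles. By either numbering, 6 of 31 arrays correlated best with their own number. With the replicate block in place of batch 0 members passed in any comparison, the median residual correlation was 0.09514, and no call changed. Depth of signal limits Mrpl39 most, which was detected on 27 arrays.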
